A study of Danio rerio with 12 samples.

Results

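The regions described here are the ATAC-seq peaks that lie within 1 Mb of the ends of 24 zebrafish chromosomes. A peak was taken when it started below position 1000000, or when it ended within 1000000 bp of the largest peak end found on its chromosome over the 4 peak lists. Chromosomes 1 to 25 were used without chromosome 4, which gave 48 end zones. The zones held 23781 of the 529602 peaks in the 4 lists together, and 482289 peaks lay in the interior of the same chromosomes. By list, 4361 of the 90689 peaks of double positive cells lay in the zones. The mCherry only list had 6058 of its 134262 peaks there, the GFP only list 6120 of 138366, and the double negative list 7242 of 166285.

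ATAC-seq marks open chromatin by the cuts of the transposase Tn5. It was applied to cells sorted from whole wild-type zebrafish embryos that carried kdrl:mCherry and sele:GFP and were raised untreated to 72 hours post fertilisation. The kdrl reporter marks vascular endothelium, and the sele reporter is named for the gene of E-selectin, through which endothelial cells capture passing leukocytes. The fractions were cells with both reporters (double positive), with mCherry and no GFP (mCherry only), with GFP and no mCherry (GFP only) and with neither (double negative), each of 3 samples. Each fraction is a gate on whole embryos and can hold several cell types, and with peak lists alone the identity of the cells could not be checked against marker genes. The 3 samples of a fraction share 1 peak list, so no value below has a replicate error, and no test between fractions or between ends and interior was possible. Intervals are 95% intervals for counting error only, and they treat neighbouring peaks as independent.

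Chromosomes end in telomeres, tandem repeats that protein complexes protect from being treated as breaks. The sequence next to them, the subtelomere, is in many animals a mixture of duplicated or repetitive blocks and gene-bearing DNA, and in human chromosomes such distal bands are often gene-rich. Repeats matter for open-chromatin maps because reads from near-identical copies can be placed on a single copy or lost. Chromosome 4, whose long arm in zebrafish is known for heterochromatin and repeats, is not among the chromosomes used. Peaks reached close to the ends of the sequence. Over the 4 lists, the first peak began at position 26 on chromosome 18, at a median position of 1192.5 over the 24 chromosomes, and at position 27064 on chromosome 3 at the latest. On 22 of the 24 chromosomes it began within the first 10 kb. The true length of each chromosome was not used here, so the far ends are placed by the last peak.

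Open regions were denser near the ends than in the interior in every fraction. The double positive list had 90.9 peaks per Mb in the end zones (88.2 to 93.6) and 65.9 in the interior, a ratio of 1.38 (1.34 to 1.42). The mCherry only list had 126 against 98.3 peaks per Mb, a ratio of 1.28 (1.25 to 1.32). For GFP only the densities were 127.5 and 100.8 per Mb, a ratio of 1.26 (1.23 to 1.30). The double negative list had 151 peaks per Mb at the ends and 122 in the interior, a ratio of 1.24 (1.21 to 1.27). The list of the double positive cells, the shortest, thus had the largest ratio. Its interval did not meet those of the other lists as called, but with lists of equal length it met those of mCherry only, at 1.32 (1.28 to 1.36), and of GFP only, at 1.30 (1.26 to 1.34). In sorted bulk fractions, a region open in fewer cells and a region less open in each cell cannot be told apart. The distance between neighbouring summits showed the same order of zones, with medians of 7.27 kb at the ends and 8.43 kb in the interior for double positive, and 5.02 and 5.52 kb for double negative. In covered bases the ratios kept this order, at 1.46 in double positive cells, 1.33 and 1.31 in the mCherry only and GFP only lists, and 1.25 in double negative cells.

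The excess was largest near the very ends and faded inwards. In the outermost 100 kb of the 48 ends, density relative to the interior was 1.62 in double positive (1.48 to 1.76), 1.53 in mCherry only (1.42 to 1.64), 1.46 in GFP only (1.35 to 1.57) and lowest, 1.44, in double negative (1.34 to 1.54). Between 200 and 300 kb from the end the double positive ratio was still 1.65, whereas the double negative ratio was 1.28. Just inside the limit of the zones, from 900 to 1000 kb, the ratios were 1.12, 1.06, 1.11 and 1.09 in the same order of lists. Just outside it, from 1000 to 1100 kb, they were 1.34, 1.24, 1.13 and 1.18. The limit of 1 Mb therefore does not mark a step in the data, and density was not lower on its outer side in any list.

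**Figure D1:**
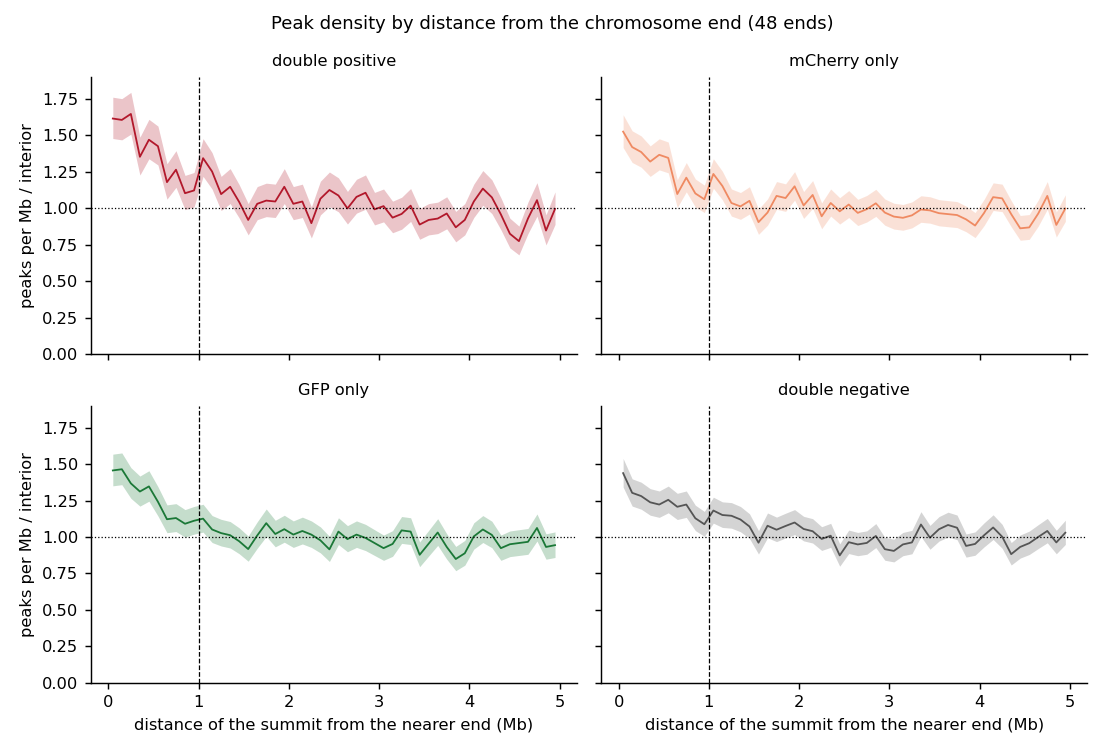
Peaks per Mb relative to the interior of the same chromosomes (vertical axis) in bins of 100 kb by distance of the peak summit from the nearer chromosome end (horizontal axis, Mb), summed over 48 ends, for each of the 4 lists. Shading is the exact Poisson 95% interval, the dashed line the limit of the end zones and the dotted line the interior density. The curves start at 1.44 to 1.62 and vary around 1 beyond 2 Mb, where the double positive bins range from 0.775 to 1.14.

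Nearly all ends took part. With the 4 lists summed, 45 of the 48 ends had more peaks than expected from the interior of their own chromosome. Among all 1282 windows of 1 Mb, ends included, 50.9% did. A ratio above 1.25 was reached by 29 ends, against 15.8% of all windows, and a ratio above 1.5 by 7 ends, against 1.95%. The first Mb and the last Mb behaved alike in number, with 22 and 23 of 24 ends above their interior. Counted in each list alone, 44 ends were above their interior in double positive cells, 46 in the GFP only list, and 43 in each of the mCherry only and double negative lists. Within a chromosome, an end was the densest of the 38 to 77 windows on 4 chromosomes, and 24 of the 48 ends ranked 5 or better in their chromosome, as did 9.36% of all windows.

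The densest end was the first Mb of chromosome 14. It held 119 peaks of the double positive list, 178 of mCherry only, 160 of GFP only and 166 of double negative. Its sum was 1.69 times the interior value of that chromosome, and the mCherry-positive lists were relatively denser there (1.98 for double positive and 1.95 for mCherry only) than the double negative list (1.38). The first Mb of chromosome 25 followed with a ratio of 1.63 and the first Mb of chromosome 2 with 1.58. In both of these the 4 lists lay close together, at 1.56 to 1.73 on chromosome 25 and 1.47 to 1.69 on chromosome 2. At the other extreme were the first Mb of chromosome 3, with a ratio of 0.816, the last Mb of chromosome 20, with 0.837, and the first Mb of chromosome 15, with 0.990. On chromosome 3 the 4 lists had 67, 79, 82 and 90 peaks in the order used above, and all of them were below the interior. That chromosome also had the latest first peak. Across the 48 ends, the ratios of the lists went together, with a Pearson r of 0.865 between double positive and mCherry only and of 0.408 between double positive and double negative. The same values over 1234 interior windows were 0.894 and 0.469. These are descriptions, since the lists share the genome sequence and its mappability at each point. The start and end of the same chromosome showed an r of 0.151 over 24 chromosomes.

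**Figure D2:**
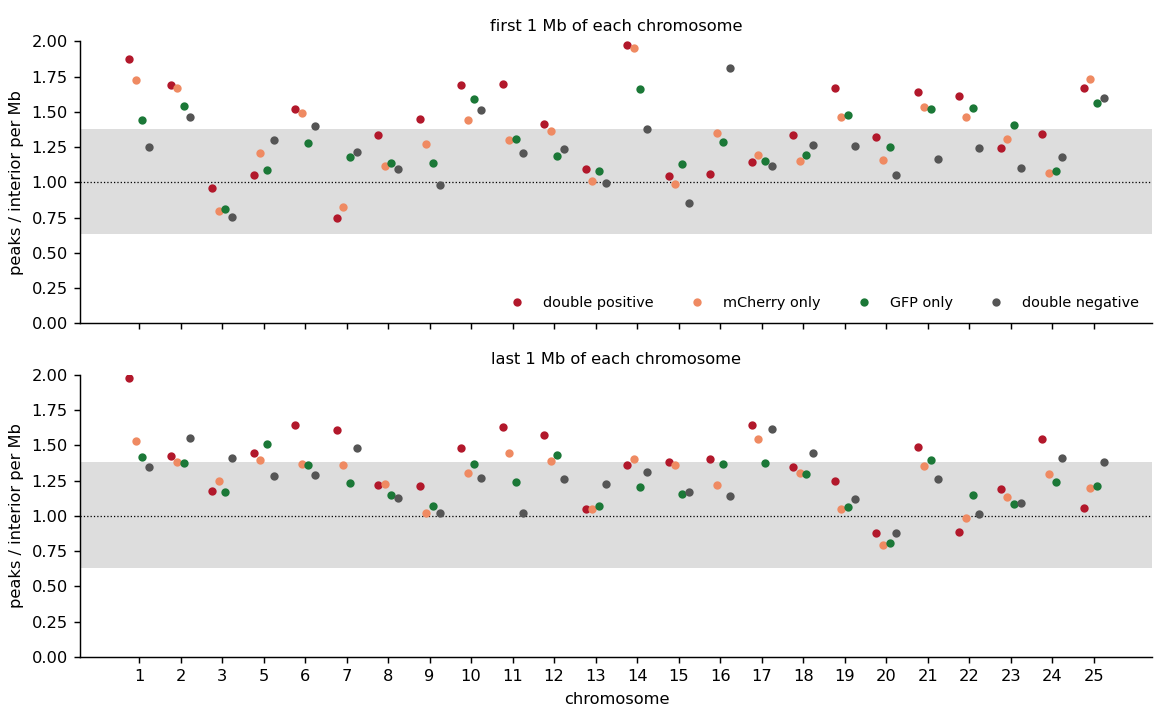
Peaks in the first (top) and last (bottom) 1 Mb of each chromosome, relative to the interior of the same chromosome per Mb (vertical axis), by chromosome number (horizontal axis), with a point for each list. The grey band spans the 5th to 95th percentile of 1234 interior windows for the 4 lists summed (0.632 to 1.38), and most ends lie above 1, with chromosome 3 (first Mb) and chromosome 20 (last Mb) below it in all lists.

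The excess of peaks at the ends was greatest among peaks with many reads. Peak height here means summit reads as a multiple of the list's genome-wide background. That background was 3.63 reads in double positive cells, and 4.46, 4.26 and 4.47 reads in the mCherry only, GFP only and double negative lists. Median height at the ends was 8.26 in double positive, 7.40 in mCherry only, 6.80 in GFP only and 6.49 in double negative. In the interior the medians were 7.16, 6.28, 5.86 and 5.82. In reads, the medians at the ends were 30, 33, 29 and 29, against 26, 28, 25 and 26. Peaks of height 10 or more made up 41.2% of double positive peaks at the ends (39.7 to 42.7), with 33.8% over the whole of the 24 chromosomes. The corresponding shares were 35.6% against 27.5% for mCherry only, 30.2% against 23.5% for GFP only and 27.6% against 22.2% for double negative. The median height exceeded that of the chromosome's own interior at 39 of the 48 ends in double positive, 37 in mCherry only, 37 in GFP only and 40 in double negative.

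Split by height, the density ratio climbed from about 1 to about 2. Below height 4 it was 1.01 in double positive cells and 0.985, 0.977 and 0.972 in the mCherry only, GFP only and double negative lists. From height 4 to 6 the 4 lists lay between 1.12 and 1.16, from 6 to 8 between 1.19 and 1.36, and from 8 to 12 between 1.38 and 1.41. At height 20 or more the ratios were 1.85 (1.72 to 2.01) for double positive, 1.95 (1.81 to 2.11) for mCherry only, 2.03 (1.86 to 2.21) for GFP only and 1.97 (1.82 to 2.14) for double negative. From height 12 to 20 the ratios were 1.68, 1.63, 1.62 and 1.45 in the same order of lists. The order of the lists seen over all peaks was therefore present from height 12 to 20. Below height 4 and from 8 to 12 the lists kept that order within narrow ranges. From height 4 to 6 and from 6 to 8 double positive was highest, but mCherry only was lowest. The order was absent at height 20 or more, where the 4 intervals overlapped.

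**Figure D3:**
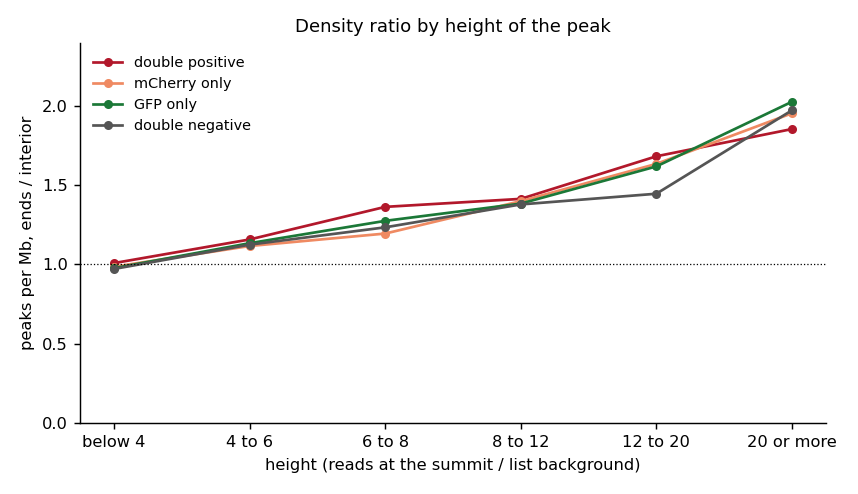
Ratio of peaks per Mb in the end zones to the interior (vertical axis) in 6 bins of peak height (horizontal axis, summit reads as a multiple of background), for the 4 lists. The ratio lies at 0.972 to 1.01 below height 4 and at 1.85 to 2.03 at height 20 or more.

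The expected background around the peaks was higher at the ends too. Each peak in the lists carries a fold enrichment over a local expected read number, and that number could be recovered. Relative to the genome-wide background of the list, its median was 1.47 at the ends and 1.18 in the interior in double positive, 1.40 and 1.12 in mCherry only, 1.36 and 1.11 in GFP only, and 1.36 and 1.08 in double negative. It was higher than in the chromosome's own interior at 48 ends in double positive and double negative, and at 47 in the other lists. Peaks whose local background was within 2% of the genome-wide value made up 18.6% of double positive peaks at the ends and 34.9% in the interior, and 24.1% and 43.4% of double negative peaks. Peaks whose expected reads were at least 3 times the background were 2.80 to 3.14 times as dense at the ends, depending on the list. The local background also rose with peak height in both zones. In double positive its median was 1 below height 4, and 2.96 at the ends and 2.49 in the interior at height 20 or more. From height 8 to 12 it was 1.62 and 1.34. No control is among the samples, so height and local background may not be separate measures.

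On the scale of the deposited fold, the end peaks were not taller. Median fold was 4.49 at the ends and 4.53 in the interior for double positive, 4.21 and 4.38 for mCherry only, 4.03 and 4.18 for GFP only, and 4.03 and 4.21 for double negative. It exceeded that of the chromosome's own interior at 19, 17, 16 and 9 of the 48 ends in that order. Peaks with a fold of 5 or more were still denser at the ends, with ratios of 1.32 (1.26 to 1.38) in double positive, 1.21 (1.16 to 1.26) in mCherry only, 1.19 (1.14 to 1.25) in GFP only and 1.07 (1.03 to 1.12) in double negative. At a fold of 10 or more the ratios were 1.05 to 1.12, and each interval included 1. The order of ends and interior in peak signal thus depended on whether reads or fold were compared. What part the local background has in the number of peaks called at the ends was not tested.

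Peak width hardly differed between the zones. Median width at the ends was 364 bp in double positive (357 to 373), 371 bp in mCherry only (365 to 378), 344 bp in GFP only (339 to 351) and 372 bp in double negative (365 to 380). In the interior it was 355, 368, 342 and 381 bp. Double negative peaks were narrower at the ends in these zones, but 382 against 381 bp with zones of 500 kb and 492 bp in both with lists of equal length. Double positive peaks were wider at the ends, but had 355 bp in both with zones of 2 Mb. Among peaks of like height the end peaks were narrower in the middle of the range. From height 8 to 12, double positive peaks had a median width of 372.5 bp at the ends and 414 bp in the interior, and double negative peaks 453 and 494 bp. At height 20 or more the order was the other way, with 704.5 against 675 bp in double positive and 807 against 764 bp in double negative. Peaks of 1000 bp or more were more frequent at the ends in all lists, at 3.44% (2.94 to 4.02) in double positive, where the interior interval was 2.11 to 2.31%, and at 3.93% against 2.50% in mCherry only, 2.65% against 1.56% in GFP only and 3.74% against 2.83% in double negative.

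Sharing among the fractions was a little greater at the ends. A peak was shared when it overlapped a peak of the other list by 1 bp or more. Of the double positive peaks at the ends, 2762 (63.3%, 61.9 to 64.8) were called in all 4 lists, close to the 62.3% of the whole list on these chromosomes. For mCherry only the share was 45.1% (43.9 to 46.4) against 41.4%, for GFP only 45.3% (44.0 to 46.5) against 40.9%, and for double negative 37.7% (36.6 to 38.8) against 33.5%. Peaks called in a single list made up 7.59% of the end peaks in double positive (6.84 to 8.41), with 7.92% in the whole list. They were 11.9% against 12.8% in mCherry only, 21.3% against 21.7% in GFP only and 29.2% against 30.9% in double negative. In bases, the overlap (Jaccard index) of double positive with mCherry only was 0.537 at the ends and 0.488 in the interior, that with GFP only 0.421 and 0.375, and that with double negative 0.365 and 0.318. The index was higher at the ends for all 6 pairs of lists.

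The greater sharing went with the greater height of the end peaks. Within bins of height, the shares called in all lists were lower at the ends in most comparisons. In GFP only and double negative the intervals overlapped in every bin where the ends were lower. In double negative from height 12 to 20 the ends were higher, at 77.6% (74.8 to 80.3) against 74.1% (73.4 to 74.7), and the intervals did not meet. The largest gap was in mCherry only from height 12 to 20, where 76.9% of end peaks (74.2 to 79.4) and 84.1% of interior peaks (83.5 to 84.7) were called in every list. Peaks of like height were not of like fold. In that bin the median fold was 6.49 at the ends and 8.06 in the interior. The median local background was 2.17 and 1.68 times the genome-wide value. Sharing at like fold was not tested. Weighted by the heights of the end peaks, the interior shares would be 65.5% in double positive cells and 47.4%, 45.6% and 37.7% in the mCherry only, GFP only and double negative lists. The end peaks differed from those values by −2.18 percentage points in double positive, −2.31 in mCherry only, −0.33 in GFP only and −0.02 in double negative. For peaks of a single list the order of the zones turned at like height. Weighted in the same way, their interior shares would be 6.72%, 10.9%, 19.6% and 28.0%, and the end peaks lay above these in all lists, by 0.87 percentage points in double positive, 0.94 in mCherry only, 1.69 in GFP only and 1.23 in double negative.

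**Figure D4:**
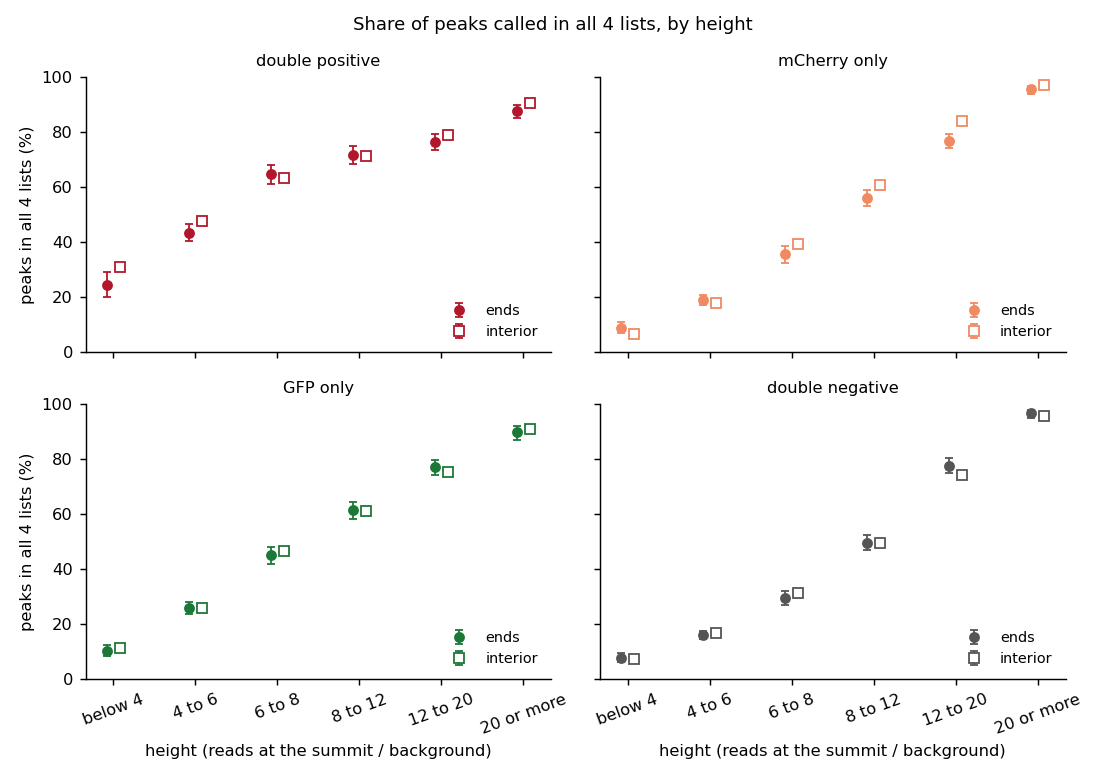
Percent of peaks called in all 4 lists (vertical axis) by height of the peak (horizontal axis, reads at the summit over background), at the ends (filled circles) and in the interior (open squares), for each list, with Wilson 95% intervals. The shares grow with height in both zones, and the mCherry only peaks of height 12 to 20 lie at 76.9% at the ends and 84.1% in the interior.

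The classes of sharing differed in how far they were enriched at the ends. Regions called in all 4 lists were 1.40 to 1.41 times as dense at the ends, whichever list counted them. Regions shared by the double positive and mCherry only lists and by no other list were 1.40 times as dense in the double positive list (1.27 to 1.54) and 1.43 times in the mCherry only list (1.30 to 1.57). A like ratio, 1.40 (1.24 to 1.59), was found for double positive peaks shared with both single-reporter lists. The lowest of the classes in that list was 1.16 (0.935 to 1.44), shared with GFP only. In the double positive list the interval of every class included 1.38, the ratio of the whole list. The median height of the first class in the double positive list was 8.54 at the ends and 6.88 in the interior. Among its peaks of height 12 or more the density ratio was 2.25 (1.89 to 2.67), against 1.76 (1.67 to 1.85) for all double positive peaks of that height. In the mCherry only list it was 2.66 (2.16 to 3.28), and 2.56 (1.99 to 3.28) for classes without double positive.

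By contrast, regions called in every fraction but the double positive were nearly as dense in the interior as at the ends. Their density ratio was 1.04 in mCherry only (0.966 to 1.12), 1.03 in GFP only (0.963 to 1.11) and again 1.04 in double negative (0.968 to 1.12). They made up 12.9% of mCherry only peaks at the ends and 15.9% in the interior, 12.8% and 15.7% of GFP only peaks, and 10.7% and 12.7% of double negative peaks. With lists of equal length the ratios of this class were 1.02 to 1.05, and those of regions in all 4 lists 1.44 to 1.45. With reciprocal overlap of 50% they were 1.08 (0.998 to 1.16) in mCherry only, 1.09 (1.01 to 1.18) in GFP only and 1.09 (1.01 to 1.18) in double negative, so that the intervals of GFP only and double negative no longer included 1. The class is low, with median heights at the ends of 5.38, 5.63 and 6.49, against 10.5 to 12.6 for regions of all lists. At height 12 or more its ratio was 2.06 (1.44 to 2.93) over 33 mCherry only peaks at the ends, 1.51 (1.19 to 1.93) over 69 GFP only peaks and 1.01 (0.810 to 1.25) over 85 double negative peaks. From height 6 to 12 it was 1.21 (1.08 to 1.36), 1.18 (1.05 to 1.32) and 1.09 (0.980 to 1.21) in the same order. Regions of all lists had 1.21, 1.32 and 1.29 at that height. Below height 6 the ratio of the class was 0.919, 0.912 and 0.999, against 1.20, 1.07 and 1.06 for regions of all lists. At height 12 or more, regions of all lists had 1.66, 1.79 and 1.71. In the single-reporter lists the interval of the class thus included 1 only below height 6. Its ratio was below that of regions of all lists at each height in GFP only, with overlapping intervals, and in double negative. In mCherry only this held only below height 6. Low ratios were not confined to this class. All classes without double positive, pooled over all heights, had 1.13 in mCherry only, 1.15 in GFP only and 1.14 in double negative. All classes with it had 1.40, 1.40 and 1.39. In mCherry only this order turned from height 6 to 12, at 1.41 without and 1.25 with double positive. At height 12 or more the mCherry only values were 2.56 and 1.73.

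Peaks of a single list had lower density ratios than regions of all lists, although in double positive the intervals overlapped. The ratios were 1.32 for double positive (1.18 to 1.47), 1.19 for mCherry only (1.10 to 1.28), 1.24 for GFP only (1.17 to 1.31) and 1.17 for double negative (1.12 to 1.22). Tall peaks of mCherry only alone were relatively frequent at the ends. Of the mCherry only peaks of height 8 or more, 109 of 2799 (3.89%, 3.24 to 4.68) were called in no other list, against 2.16% in the interior (2.03 to 2.30). They were spread over 44 of the 48 ends, with at most 8 in an end, the first Mb of chromosome 6. Their expected reads had a median of 2.69 times the background, against 2.08 in the interior, and their median fold was 3.44 against 4.21. The corresponding shares were 1.68% and 1.75% for double positive, 10.1% and 10.4% for GFP only, and 9.82% and 8.78% for double negative.

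Peaks of the double negative list alone formed chains both along the ends and in the interior. Chains of 5 or more such peaks with gaps of at most 20 kb between summits were counted. Those lying in or reaching into the end zones numbered 127, or 2.65 per Mb (2.21 to 3.15), against 2621 in the interior. Their ratio per Mb was 1.26, beside 1.24 for all double negative peaks. Double negative chains that crossed the limit of the zones were all counted at the ends, which raises that ratio. GFP only had 32 chains at the ends (0.667 per Mb, 0.456 to 0.941, against 0.462), mCherry only 5 and double positive none. The longest interior chains held 45 double negative, 26 GFP only and 14 mCherry only peaks, against 60, 13 and 6 at the ends. The longest at the ends was on chromosome 16 from 76095 to 520841. That stretch held 104 double negative peaks, 60 of them in no other list, beside 58 GFP only, 55 mCherry only and 29 double positive peaks. The next were chains of 26 peaks on chromosome 7 from 77088222 to 77274282 and on chromosome 18 from 49130979 to 49339925. On chromosome 18, the same stretch held 40 double negative, 13 GFP only, 19 mCherry only and 7 double positive peaks.

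The share of each list that fell in the end zones was slightly larger in the reporter-positive lists. Of the peaks on the 24 chromosomes, 5.04% of double positive, 4.71% of mCherry only, 4.64% of GFP only and 4.55% of double negative peaks lay in the end zones. The mean log2 share of the GFP-positive lists exceeded that of the GFP-negative lists by 0.06 (0.03 to 0.10), and the same contrast by mCherry was 0.08 (0.05 to 0.12). The double positive list had the highest share of the 4. GFP only stood above double negative in the first Mb, at 2.37% against 2.25%, but not in the last Mb, at 2.27% against 2.31%. With zones of 2 Mb the density ratio was 1.15 in GFP only and 1.17 in double negative. Within 500 kb of the ends the contrasts were 0.11 (0.06 to 0.16) and 0.13 (0.08 to 0.18). The GFP contrast did not stand clear of 0 in every setting: it was 0.0256 (−0.000746 to 0.05) within 2 Mb, 0.04 (−0.02 to 0.11) among peaks of height 10 or more, and 0.04 (−0.01 to 0.10) in the last Mb of the chromosomes taken alone. The mCherry interval lay above 0 in all 3 of these, at 0.06 (0.03 to 0.09), 0.07 (0.01 to 0.13) and 0.07 (0.02 to 0.12). They are small beside the spread of single windows, which had an SD of 0.23 for GFP and 0.27 for mCherry over 1228 interior windows with at least 20 peaks in each list. Of the 48 ends, 31 had a GFP contrast above 0 and 36 an mCherry contrast above 0, against 633 and 625 of the 1228 interior windows.

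A few ends departed from this balance. In the first Mb of chromosome 7, 48 double positive and 82 mCherry only peaks stood beside 118 GFP only and 148 double negative peaks. Its mCherry contrast was −0.62 (−0.93 to −0.31), the lowest of the 48 ends, and 3.48% of interior windows were lower. The first Mb of chromosome 16 had 70 double positive peaks, 132 in each single-reporter list and 213 double negative peaks. Its GFP contrast of −0.38 (−0.64 to −0.12) was the lowest of the ends, and its mCherry contrast was −0.35 (−0.61 to −0.08). Of the interior windows, 6.40% had a lower GFP contrast and 11.2% a lower mCherry contrast. In the double negative list, 46.0% of the peaks there and 44.6% of those in the first Mb of chromosome 7 were in no other list. That share was 30.9% in the whole list, and its 95th percentile over interior windows was 48.7%, above both ends. The first Mb of chromosome 5 had the second-lowest GFP contrast, −0.22, with an interval that included 0.

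In the other direction, the last Mb of chromosome 11 had 109 double positive and 147 mCherry only peaks, and 129 in each of the other lists. Its mCherry contrast of 0.43 (0.18 to 0.68) was the highest of the ends, followed by 0.38 (0.14 to 0.62) in the first Mb of chromosome 1. Lower mCherry contrasts were found in 97.6% and 96.0% of interior windows. The highest GFP contrasts were 0.28 (0.02 to 0.53) in the last Mb of chromosome 16 and 0.26 (0.02 to 0.51) in the first Mb of chromosome 22. Lower GFP contrasts were found in 90.8% and 89.6% of interior windows. The lowest and the highest GFP contrast thus lay at opposite ends of chromosome 16. No end lay outside the range of interior windows in either contrast.

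**Figure D5:**
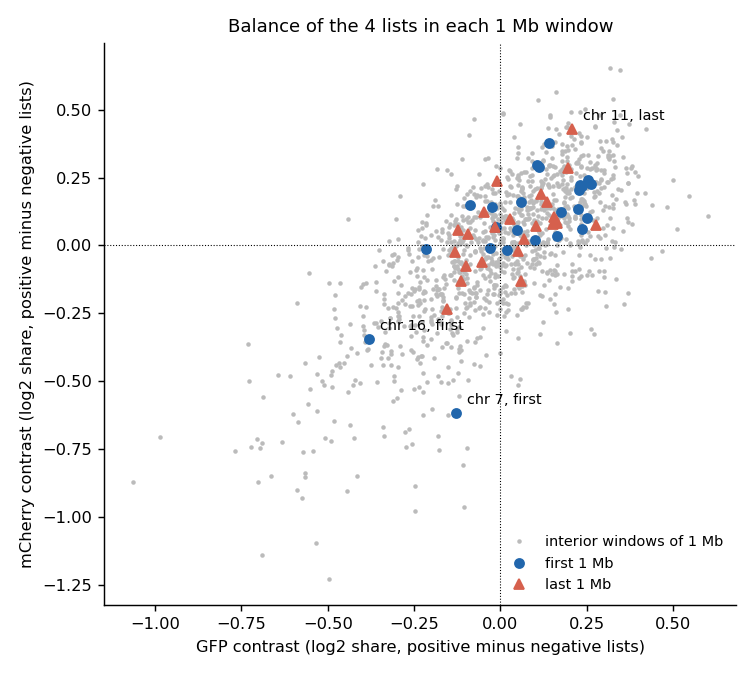
Contrast by GFP (horizontal axis) and by mCherry (vertical axis) in 1 Mb windows, each the log2 share of peaks averaged over the reporter-positive lists minus that over the reporter-negative lists. Blue circles are the first and red triangles the last Mb of 24 chromosomes and grey dots 1228 interior windows, and the first Mb of chromosomes 7 (mCherry contrast −0.62) and 16 (GFP contrast −0.38) stand apart from the other ends.

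Where the same region was open in all fractions, its relative height in the lists differed only slightly between the ends and the interior. Pairs of peaks of all-list regions with a geometric mean height of 10 or more were used. The double positive height was 0.975 of the double negative height in the median over 1402 end regions (0.962 to 0.988), and 1.02 over 20976 interior regions (1.02 to 1.03). Set against mCherry only it was 0.938 at the ends and 0.957 in the interior, and set against GFP only 1.07 and 1.11. The double positive ratio was thus lower at the ends against each other list, and the intervals of the zones did not meet. For mCherry only over double negative the ratios were 1.03 (1.02 to 1.04) and 1.06 (1.05 to 1.06). For mCherry only over GFP only they were 1.15 and 1.16, with overlapping intervals. The ratio of GFP only to double negative was 0.926 at the ends and 0.925 in the interior. The quartiles of these ratios at the ends, 0.820 and 1.15 for double positive over double negative, were much farther apart than the medians of the zones.

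The tallest peaks of the end zones were called in every fraction. On chromosome 17, 139 kb from the last peak end, the double positive region from 53841237 to 53841688 had 263 reads in double positive (exact Poisson interval 232 to 297), 256 in mCherry only, 249 in GFP only and 260 in double negative. About 15.8 reads were expected there in the double positive list, and its fold was 15.7. It was the tallest end peak of the double negative list and ranked 54th by height among all double positive peaks of the 24 chromosomes. On chromosome 2, the GFP only region from 135026 to 135761 had 268 reads in GFP only (237 to 302), 242 in double positive, 254 in mCherry only and 255 in double negative. Its fold was 9.69 in the GFP only list. The reads in these regions differed little between the lists as counted, although the lists have different backgrounds. The highest read number of any peak was also nearly the same in each list, at 386, 386, 390 and 385 in the order used above. Read filters are not known, so like counts in the tallest peaks do not show equal openness.

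The tallest of all by reads, in 3 of the lists, stood on a raised background. The double positive region on chromosome 20 from 55786512 to 55787423, 157 kb from the last peak end, had 275 reads in double positive (243 to 309), 273 in mCherry only, 287 in GFP only and 248 in double negative. In the double positive list 174 reads were expected there, against a genome-wide background of 3.63, and its fold was 1.58. Next to it, the region from 55787761 to 55788119 had 266 double positive reads and a fold of 1.45. In this last Mb of chromosome 20, the second-sparsest of the 48 ends, 18 double positive peaks, 15 GFP only peaks and 21 peaks in each of the other lists had expected reads of at least 5 times the background. All 18 double positive peaks among them were called in every list. The tallest end peak of mCherry only alone, from 55789788 to 55790220, lies in the same block, with 225 reads (197 to 256) and a fold of 1.26.

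The other leading peaks of a single list were lower. In double positive alone, a pair of neighbouring peaks on chromosome 9 led, from 637165 to 637660 with 84 reads (67.0 to 104) and from 638608 to 638973 with 81 reads (64.3 to 101). Their folds were 2.87 and 2.65 over 28.6 and 30.0 expected reads, against a genome-wide background of 3.63. The pair lay among peaks of every list. From 612872 to 673967 there were 10, 15, 12 and 19 peaks in the order used above. A chain of 5 GFP only peaks began at 637977, between the members of the pair. The pair thus overlapped no peak of another list, but such peaks lay close by. In mCherry only alone, chromosome 3 held a region from 149807 to 150045 of 76 reads (59.9 to 95.1) and a fold of 1.99. GFP only had the tallest peaks of its own with a high fold. They lay at opposite ends of chromosome 1, from 60285642 to 60286437 with 152 reads (129 to 178) and a fold of 7.22, and from 91923 to 92393 with 114 reads (94.0 to 137) and a fold of 6.94. In double negative alone, the tallest was on chromosome 1, between 633546 and 634183, at 91 reads (73.3 to 112) and a fold of 4.70. It was followed by a region on chromosome 23 from 45965400 to 45965930, with 89 reads (71.5 to 110) and a fold of 3.01. Coordinates are in danRer7. No genome sequence or gene annotation of that build was used here, so the genes, exons and repeats at these positions are not named.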

How the data were processed

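Samples were grouped by their titles. The submitters' processing notes name the danRer7 build, the aligner Bowtie2 2.2.1 and the peak caller MACS2 2.1.0, and 12000 to 50000 cells of each fraction were processed per the labels' protocols. Not given in the sources used here were caller settings, read filters, Tn5 offsets and pooling, and sequencing depth is unknown. The deposited lists give, as the authors' per-peak values, a fold (linear ratio over expected background), −log10 p, −log10 q, a summit offset and a score. The score, in nearly all peaks 10 times −log10 q rounded down, was not used further.

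Reads and expected background at each summit were recovered as the whole number that gives both fold and −log10 p under a Poisson tail with a pseudocount of 1. The largest misfit was 0.000382, and the second-best number missed by at least 0.00206. That model is inferred from the values. The lowest expected background of a list was its genome-wide background. On simulated peaks, 99.96% or more of the read numbers were recovered in each list, and a density ratio set at 1.5 was estimated at 1.50 to 1.53. The simulation checks the computation only. Overlaps were computed with bedtools 2.31.1, and the rest with Python 3.11.15 and scipy 1.17.1.

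End zones were 1 Mb long and the interior 1247 Mb in all, including unsequenced bases. Intervals are exact Poisson for densities and reads, Wilson for shares, order-statistic for medians and normal on the log scale for ratios and contrasts. With 1 list per group nothing was tested. The rule on regions, lists and measures was chosen with earlier results of these data known. Named regions are the 3 densest and 3 sparsest ends, the 2 ends at each extreme of either contrast, the 3 tallest end peaks of each list and its 2 tallest in no other list, and the chromosomes with the earliest and latest first peak. Chains, height bins, the classes under other settings and chromosome 20's raised block were chosen after their values were seen. Alternatives were other zone lengths, a stricter q, reciprocal overlap, lists of equal length, a deeper interior, tall peaks only and leaving out a chromosome.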

Additional observations from a re-analysis of the deposited data

How the results depend on the processing

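Values follow the order double positive, mCherry only, GFP only, double negative unless named. Of 132 comparisons of 22 results with 8 alternatives, 64 stayed within the counting interval of the reported value and 68 did not. No density or height ratio turned below 1 and no contrast below 0. Widths and shares at the ends have no direction of their own, but their order against the interior turned in places beyond those in the report. The double positive share in all lists was 62.2% at the ends and 62.3% in the interior with 2 Mb zones, its share alone 7.98 and 7.91%, and widths 367 and 368 bp in mCherry only and 341 and 342 bp in GFP only. At height 10 or more, the double positive and mCherry only shares in all lists were 80.0 and 79.4% at the ends and 81.9 and 83.5% in the interior, shares alone 2.18 and 1.04% in mCherry only and 5.79 and 4.99% in double negative, and mCherry only widths 569 and 574 bp. A deeper interior and leaving out the most influential chromosome moved none of the results they were run on. Tall peaks (height 10 or more) gave density ratios of 1.70, 1.68, 1.65 and 1.56; this and the left-out chromosome were chosen after seeing the data. With zones of 500 kb, density ratios were 1.53, 1.40, 1.39 and 1.29, height ratios were 1.27, 1.29, 1.28 and 1.23, shares in all lists 65.6, 47.6, 47.6 and 41.7%, the double negative share alone 26.8%, widths 381 (mCherry only) and 382 bp (double negative), and contrasts 0.11 (GFP) and 0.13 (mCherry). With 2 Mb, density ratios were 1.25, 1.18, 1.15 and 1.17, height ratios were 1.08, 1.11, 1.04 and 1.08, the double positive width 355 bp, shares in all lists 43.6% (mCherry only) and 35.5% (double negative), the double negative share alone 30.8%, and the GFP contrast 0.0256. With −log10 q of 5 or more, the double positive density ratio was 1.44, widths were 428, 428, 397 and 436 bp, shares in all lists 65.4, 47.0, 49.6 and 40.4%, and shares alone 6.21% (double positive), 19.3% (GFP only) and 30.4% (double negative). With reciprocal overlap of 50%, shares in all lists were 48.2, 35.9, 35.0 and 29.4% and shares alone 14.3, 19.1, 28.8 and 36.8%. With lists of equal length, density ratios were 1.32 (mCherry only) and 1.30 (GFP only), shares in all lists were 49.0, 49.8, 51.4 and 52.9%, shares alone 17.6, 9.68, 20.1 and 23.0%, widths 446, 408 and 492 bp in the lists after double positive, and the double negative height ratio 1.16. A stricter q, another overlap and shorter lists change by construction which peaks are counted; otherwise the cause was not tested. No paired analysis was possible because the 3 samples of a fraction share 1 list. The unknown depth of each list limits what a missing peak means.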
